A study of Drosophila melanogaster with 3 samples.

Results

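The germline genes piwi, aub, AGO3, vas, tud, spn-E, osk, bam, bgcn and gcl were examined for regions of the chromatin protein Dip3 in fly embryos. They are 10 of the 13968 protein-coding genes annotated on the chromosomes, chosen by name for their roles in germ cells and in the piRNA pathway. A region was assigned to a gene where its summit, the base with the highest enrichment, lay in the gene body or within 2 kb of it. By this rule 5 of the 10 genes, namely piwi, vas, osk, bgcn and gcl, had at least 1 region of the reproducible set. The genes aub, AGO3, tud, spn-E and bam had none.

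The data came from chromatin immunoprecipitation followed by sequencing (ChIP-seq). Drosophila melanogaster embryos of both sexes, aged 0 to 24 h, were taken whole from 1 transgenic line in which Dip3, the product of the gene Dlip3, carries GFP at its C-terminus, and the fusion protein was recovered with an antibody to GFP. The 3 biological replicates form 1 group, with no other genotype, treatment or age beside it. Whole embryos hold few germ cells among many somatic cells, and the cells from which a region came cannot be told apart in this material.

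Each replicate has its own list of 30000 regions, most of them weak. A list from the pooled replicates holds 23524 regions, and its 3741 strongest form the set selected by irreproducible discovery rate, called the IDR set here. The signal of a region is the authors' own enrichment value and was compared only within a list, so replicates are described by rank, with rank 1 the strongest region. To match that number, the top list of a replicate was taken as its first 3741 regions by signal. Replicate 3 stood apart from the others. With the q value held to at most 0.01 it listed 8812 regions, against 2480 in replicate 1 and 3226 in replicate 2, and 9.06% of its regions had no counterpart in the pooled list, against 0.121% and 0.372%.

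In the fly ovary, piRNAs are small RNAs that guide Argonaute proteins of the Piwi clade to transposon transcripts. Piwi acts in the nucleus on transcription of transposons. Aubergine and AGO3 cut transcripts in the cytoplasm and amplify the small RNAs in the ping-pong cycle. They do so in perinuclear granules that need the helicases Vasa and Spindle-E and also hold the scaffold Tudor. Several of these proteins are also parts of the germ plasm, the posterior cytoplasm that Oskar organises in the egg and from which the pole cells of the embryo form. Dip3 belongs to the family of proteins with MADF and BESS domains and is known as a partner of the Rel-family factor Dorsal.

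The sequences around the summits show what kind of DNA lay under the regions of piwi, vas, osk and spn-E. Each runs from 100 bases before to 100 bases after the summit of the pooled region, and is read 5′ to 3′ on the plus strand of the RefSeq Release 6 sequence (dm6). Capitals mark exact matches, on either strand, to any of 6 promoter words, which are the DRE TATCGATA, the BEAF-32 core CGATA, the Motif 1 core GGTCACAC, the TATA box TATAAA, the initiator core TCAGT and the E-box CAGCTG. The DRE contains the BEAF-32 core.
piwi and CG12253, chr2L:10987535-10987735: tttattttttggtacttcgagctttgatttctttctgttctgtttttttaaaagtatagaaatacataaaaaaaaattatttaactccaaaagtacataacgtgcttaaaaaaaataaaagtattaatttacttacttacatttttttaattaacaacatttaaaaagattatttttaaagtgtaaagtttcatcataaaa
piwi and TTLL4A, chr2L:10989270-10989470: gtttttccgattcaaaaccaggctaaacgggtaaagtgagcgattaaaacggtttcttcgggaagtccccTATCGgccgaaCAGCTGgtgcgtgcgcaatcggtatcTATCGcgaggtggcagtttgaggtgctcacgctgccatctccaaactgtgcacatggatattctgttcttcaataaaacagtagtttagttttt
vas start, chr2L:15061499-15061699: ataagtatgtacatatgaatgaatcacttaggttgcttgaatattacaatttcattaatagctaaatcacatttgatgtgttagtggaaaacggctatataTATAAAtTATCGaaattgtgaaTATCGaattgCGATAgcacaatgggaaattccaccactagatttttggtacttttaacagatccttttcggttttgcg
vas and vig, chr2L:15068035-15068235: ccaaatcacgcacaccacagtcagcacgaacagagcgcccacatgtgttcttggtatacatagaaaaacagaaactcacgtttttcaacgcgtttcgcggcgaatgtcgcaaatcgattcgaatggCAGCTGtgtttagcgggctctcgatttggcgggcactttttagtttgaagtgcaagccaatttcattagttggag
spn-E start, chr3R:15837177-15837377: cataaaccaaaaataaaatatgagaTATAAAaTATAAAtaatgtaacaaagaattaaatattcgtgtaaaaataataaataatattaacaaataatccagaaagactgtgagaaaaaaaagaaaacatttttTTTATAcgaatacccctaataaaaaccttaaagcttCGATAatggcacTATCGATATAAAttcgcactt
osk and ScsbetaA, chr3R:8938600-8938800: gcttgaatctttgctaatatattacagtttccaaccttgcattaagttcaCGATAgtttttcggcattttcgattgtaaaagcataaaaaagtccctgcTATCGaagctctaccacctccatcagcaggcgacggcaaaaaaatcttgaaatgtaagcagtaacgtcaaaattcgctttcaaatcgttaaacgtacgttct
The window between piwi and CG12253 holds none of the marked words and is made mostly of runs of a and t, with 18.4% G+C. The window at the TTLL4A start has 46.8% G+C and holds the BEAF-32 core on both sides of an E-box. The vas start window carries a TATA box and 3 BEAF-32 cores close together, and the spn-E start window carries a DRE that runs into a TATA box.

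Read against the whole genome, 5 of 10 members with an IDR region compares with 34.0% of all protein-coding genes. The 7 regions at these members had a median signal of 111, below the median of 141 over all IDR regions, which ran from 85.1 to 2760. The strongest of the 7 was the region at the start of TTLL4A, upstream of piwi, at rank 704 with a signal of 257. The region at the start of bgcn followed at rank 795 with a signal of 238. The other 5 had ranks from 2562 to 3719 of 3741.

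Within 500 bp of the member's own annotated start the count was 3 of 10, namely piwi, bgcn and gcl, against 20.3% of all protein-coding genes. For 6 of the 7 regions the nearest protein-coding start belonged to a neighbour, and the same was true of 49.6% of all 6878 pairs of a gene and an IDR region in or near it. The neighbours were CG12253 and TTLL4A beside piwi, vig inside vas, ScsbetaA behind osk, Pym inside bgcn and CG14767 beside gcl. Only the stronger bgcn region had the member's own start as the nearest one. With regions held to the top lists of both remaining replicates, the count of 3 was 1 without replicate 1, 1 without replicate 2 and 3 without replicate 3, beside 14.5%, 13.6% and 14.6% of all protein-coding genes. With 10 genes, neither count is read as a property of the group.

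**Figure D1:**
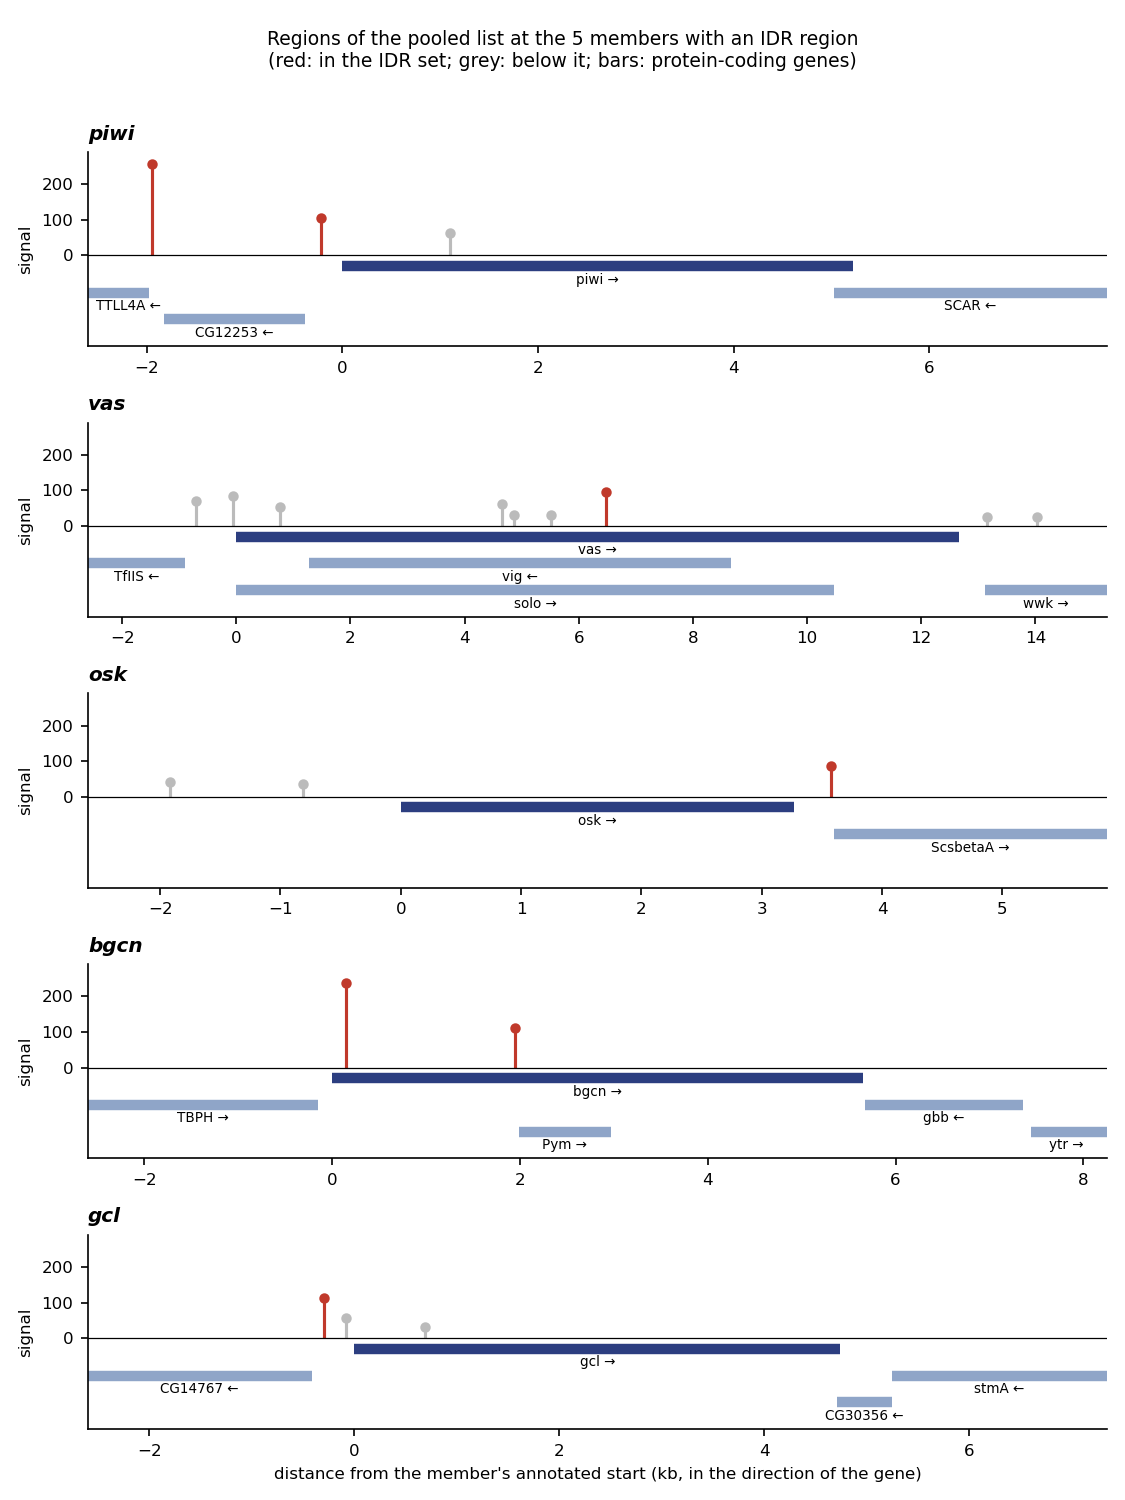
Regions of the pooled list around the 5 members with an IDR region, drawn at their distance in kb from the member's annotated start (horizontal axis, in the direction of the gene) with their signal as height (vertical axis, authors' units). Red stems are IDR regions and grey stems weaker regions of the pooled list; dark bars are the member and light bars other protein-coding genes with an arrow for their direction relative to the member. The red stems stand at starts of neighbours such as TTLL4A, ScsbetaA and Pym, and in bgcn also at the member's own start. The red stem in vas stands inside the vig bar, at the inner of 2 annotated vig starts.

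The gene piwi (FBgn0004872) encodes the nuclear Argonaute of the pathway and lies on 2L, from 10982205 to 10987420 on the minus strand of dm6. Its start is 386 bp from that of CG12253, which runs the other way, and an IDR region from 10987440 to 10987829 lay over most of the gap. The summit was 215 bp upstream of piwi and 171 bp upstream of CG12253, with a signal of 106 and rank 2799. Replicates 1, 2 and 3 listed it at ranks 2239, 3094 and 5356, with −log10 q values of 2.33, 2.18 and 2.99. It was thus in the top lists of replicates 1 and 2 and below that of replicate 3, although replicate 3 gave it the highest −log10 q.

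A second IDR region near piwi, from 10989175 to 10989564, belonged by distance to TTLL4A, a gene of the tubulin tyrosine ligase-like family. Its summit was 31 bp upstream of the TTLL4A start and 1950 bp upstream of piwi, just inside the 2 kb limit. The replicates gave it ranks 2610, 2648 and 157, so replicates 1 and 2 placed it in the lower part of their top lists and replicate 3 among its strongest regions. TTLL4A runs on to overlap the 3′ end of aub, which lies 10398 bp beyond piwi on the same arm, and the region was not within 2 kb of aub itself.

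The gene vas (FBgn0283442) encodes a DEAD-box RNA helicase of germ granules and lies on 2L, from 15061656 to 15074311 on the plus strand. It shares its start with solo, a gene needed for cohesion of sister chromatids in meiosis, and holds vig, the vasa intronic gene, which encodes a component of the RNA-induced silencing complex. The IDR region, from 15067940 to 15068329, had a signal of 94.3 and rank 3256. Its summit lay in an intron 6479 bp inside vas and 57 bp upstream of a vig start. This start is the inner one of 2 annotated for vig, and the summit also lay in introns of vig and solo. Replicate 3 listed the region at rank 1095, and replicates 1 and 2 did not list it at all. Of all 3741 IDR regions, 16 (0.428%) were missing from both of these lists.

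At the shared start of vas and solo the pooled list held a region from 15061404 to 15061793, with its summit 57 bp upstream. Its signal of 84.8 put it at rank 3756, which is 15 places below the IDR set, whose lowest signal was 85.1. Replicates 1, 2 and 3 listed it at ranks 6386, 4413 and 3705, all 3 with a summit within 124 bp of the start and replicate 3 alone in its top list. This region was therefore found in every replicate although it stayed just outside the set, whereas the vig region inside the set was found in 1 replicate. In all, 9 regions of the pooled list were assigned to vas, more than to any other member.

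The gene osk (FBgn0003015) encodes the organiser of the germ plasm and lies on 3R, from 8935126 to 8938395 on the plus strand. No list, pooled or from a replicate, had a summit within 500 bp of its start. The IDR region assigned to it, from 8938505 to 8938894, lay 305 bp past its 3′ end and 24 bp upstream of ScsbetaA, which encodes a subunit of succinyl-CoA synthetase. Its signal of 85.4 and rank 3719 placed it just inside the set. Replicate 1 did not list it, replicate 2 had an overlapping region at rank 7203 with its summit 278 bp away, and replicate 3 listed it at rank 2117. The regions at vig and at ScsbetaA were in the top list of replicate 3 alone. The RNAs asRNA:CR44020, antisense at the 5′ end of osk, and lncRNA:osk, within osk, had no summit at their starts in any list.

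The gene bgcn (FBgn0004581) encodes the partner with which Bam acts in the differentiation of germline stem cell daughters, and lies on 2R, from 23853270 to 23858921 on the minus strand. Its IDR region from 23858725 to 23858858 was 134 bp wide and had its summit in the 5′ UTR, 147 bp inside the start. The replicates listed it at ranks 1016, 1140 and 511, with signals of 74.7, 55.6 and 105 and summits 141, 147 and 147 bp inside the start. It was the only one of the 3 regions at members' own starts that was in all 3 top lists, and its summit moved by at most 6 bp.

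A second region of bgcn, from 23856781 to 23857170, lay in an intron with its summit 40 bp upstream of Pym, a nested gene for a protein that binds the exon junction complex. Its signal was 111 and its rank 2606. The replicates listed it at ranks 4323, 5222 and 1854, so that replicate 3 alone had it in its top list. A DRE lay within 50 bp of its summit, as it did for 2.89% of all IDR regions.

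The gene gcl (FBgn0005695) is needed for the formation of pole cells and lies on 2R, from 8724258 to 8728999 on the plus strand. Like piwi it has a divergent neighbour, CG14767, with starts 419 bp apart. The IDR region from 8723769 to 8724158 lay between them, 294 bp upstream of gcl and 125 bp upstream of CG14767, with a signal of 112 and rank 2562. Replicates 1 and 2 listed it at ranks 3038 and 2111, in their top lists, and replicate 3 had no summit there. The pooled list had a further, weaker region 87 bp upstream of gcl at rank 6242. Replicates 1, 2 and 3 listed this weaker region at ranks 8064, 13630 and 4346. In replicate 3 its summit was 113 bp upstream of gcl, and it overlapped the IDR region although its summit was 181 bp from that of the IDR region. A summit at the start of the nested snoRNA:gcl-a was at rank 3875 in replicate 3 and at rank 16044 in the pooled list, and was absent from replicates 1 and 2.

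Of the 7 regions, 2 were in the top list of every replicate, namely those at the starts of TTLL4A and bgcn, against 58.7% of all IDR regions. The whole lists of all replicates held 5 of the 7, against 91.0%. The top lists of replicates 1, 2 and 3 held 4, 4 and 5 of them, against 81.5%, 85.2% and 77.6% of all IDR regions. These shares cover IDR regions of every rank, whereas 5 of the 7 had pooled ranks from 2562 to 3719. No share for regions of like rank is given here. Matching was by overlap, so the gcl region counts as listed in replicate 3 through the neighbouring region, and the osk region in replicate 2 through one with its summit 278 bp away. The region between piwi and CG12253 ranked lower in replicate 3 than in replicates 1 and 2, and the 5 regions at TTLL4A, vig, ScsbetaA, Pym and the bgcn start ranked highest in replicate 3, the only replicate that listed the vig region. Counting only IDR regions that were also in the top lists of both remaining replicates, members with a region numbered 2 without replicate 1, 2 without replicate 2 and 3 without replicate 3, beside 25.6%, 24.2% and 26.4% of all protein-coding genes.

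**Figure D2:**
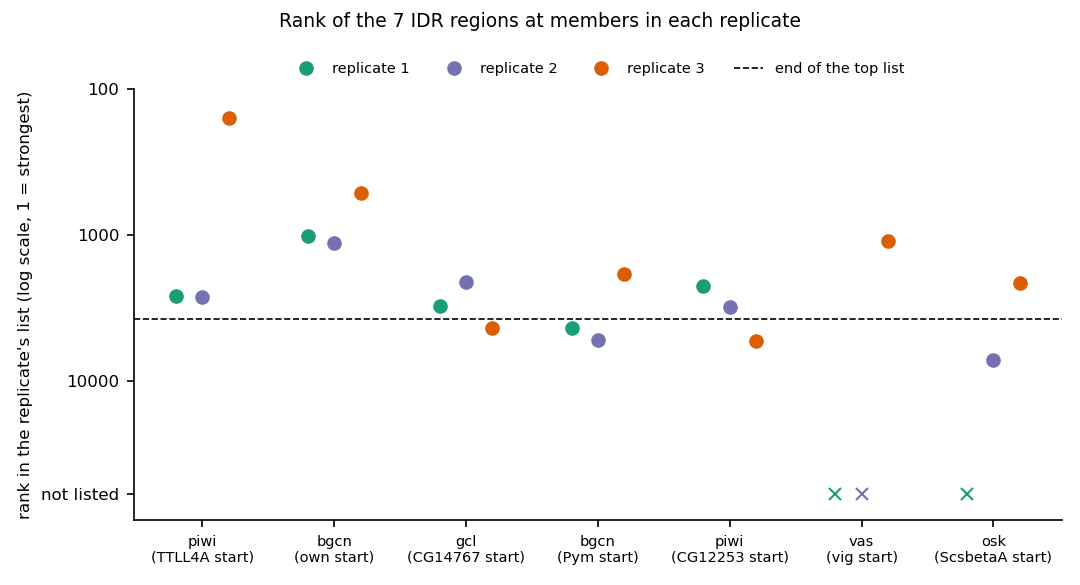
Rank of the region that overlaps each of the 7 member regions in the lists of replicates 1, 2 and 3 (vertical axis, logarithmic, rank 1 strongest), with the length of the top list, 3741, as a line. The TTLL4A region goes from 2610 and 2648 to 157 in replicate 3, the bgcn start region stays between 511 and 1140, the gcl point of replicate 3 is the neighbouring region with its summit 181 bp away, and the regions at vig and ScsbetaA are within the top list in replicate 3 only.

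Each replicate was also read on its own, without the IDR set. Top-list summits in the body or within 2 kb were found at 3 members in replicate 1 (piwi, bgcn and gcl), 4 in replicate 2 (the same and tud) and 5 in replicate 3 (piwi, vas, spn-E, osk and bgcn). That is 4 ± 1 of 10 (SD, n = 3), beside 33.0 ± 1.42% of all protein-coding genes. Near the member's own start the top lists held piwi, bgcn and gcl in replicate 1, those and tud in replicate 2, and vas and bgcn in replicate 3. This is 3 ± 1 of 10 (SD, n = 3), beside 19.2 ± 1.81% of all protein-coding genes. The gene bgcn was the only member with a region at its start in all 3 top lists.

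In the pooled list, 5 of 10 members had a summit within 500 bp of their own start, against 47.8% of all protein-coding genes. These were piwi, bgcn and gcl from the IDR set, and vas and spn-E below it. No pooled summit lay at the starts of aub, AGO3, tud, osk and bam.

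**Figure D3:**
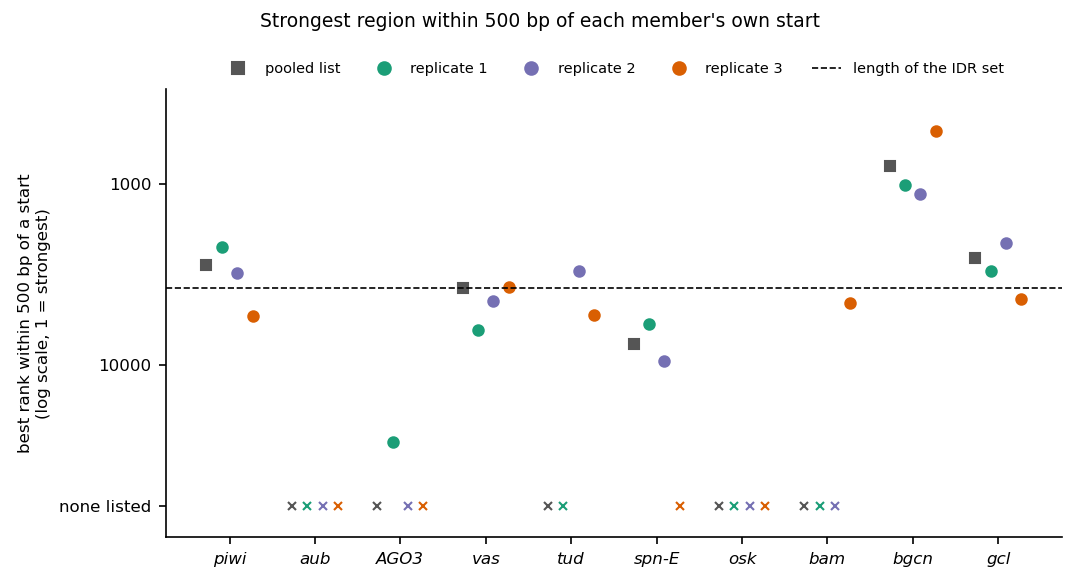
Best rank of any region with its summit within 500 bp of the start of each of the 10 members (vertical axis, logarithmic, rank 1 strongest) in the pooled list and in replicates 1, 2 and 3, with the limit of 3741 as a line. bgcn stands highest in every list, aub and osk have no region in any list, and bam has one in replicate 3 only.

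Among the members without an IDR region, spn-E (FBgn0003483, 3R, 15837419 to 15844415, plus strand), which encodes a helicase with a Tudor domain, had a pooled region 142 bp upstream of its start at rank 7666. Its start is 302 bp from that of ND-23, a gene for a subunit of respiratory complex I that runs the other way. Replicates 1 and 2 listed the region at ranks 5964 and 9565, and replicate 3 did not list it. Inside spn-E the start of Pbp45, which encodes a factor for promoters of small nuclear RNA genes, had a stronger pooled region at rank 4979, with ranks 6606 and 2942 in replicates 1 and 3. The nearest IDR summit was 120967 bp from spn-E.

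The gene tud (FBgn0003891, 2R, 21183322 to 21192913, plus strand) encodes the Tudor-domain scaffold of germ granules. Replicate 2 listed a region 69 bp upstream of its start at rank 3035 and replicate 3 one 12 bp upstream at rank 5327, with −log10 q values of 2.29 and 3.07. These summits also lay 397 and 454 bp past the start of tRNA:Gly-GCC-1-13. Replicate 1 had no region at tud, and the pooled list had none at its start. The best-ranked pooled region within 2 kb, at rank 4424, lay past the 3′ end of tud and 763 bp inside the start of Lapsyn. The nearest IDR summit was 7339 bp away.

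The gene bam (FBgn0000158, 3R, 25243039 to 25245109, minus strand) encodes the differentiation factor of stem cell daughters that acts with Bgcn. Replicate 3 listed a region 35 bp upstream of its start at rank 4546 with a −log10 q of 3.48. Replicate 1 listed none at bam, replicate 2 had a weak one at rank 21245, and the pooled list had none. The nearest IDR summit was 2422 bp away, just outside the 2 kb window. That region had a signal of 688 and rank 77, and its nearest start was that of RpS27, a ribosomal protein gene.

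The gene aub (FBgn0000146, 2L, 10997819 to 11001476, minus strand) encodes a cytoplasmic Argonaute of the ping-pong cycle and had no summit within 500 bp of either of its starts in any list. The best-ranked regions within 2 kb were at 10952 in the pooled list, 4213 in replicate 2 and 13999 in replicate 3, with none in replicate 1. An IDR region at RpL9, another ribosomal protein gene, lay 2701 bp away with a signal of 132 and rank 2065. With a window of 5 kb in place of 2 kb, 7 of the 10 members had an IDR region, against 46.9% of all protein-coding genes.

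The other ping-pong Argonaute gene, AGO3 (FBgn0250816, 3L, 23554593 to 23689640, plus strand), spans 135048 bp and was the longest member. Neither the IDR set nor the pooled list nor replicate 3 had a summit in it or within 2 kb. Replicate 1 listed 18 regions and replicate 2 listed 6, with best ranks of 9552 and 17178, and none had a q value of 0.01 or less. Of all 87 protein-coding genes of 100 kb or more, 51.7% had an IDR region. The annotation places 106 transposable elements in AGO3 that cover 70.5% of its body, against 3 covering 10.6% of piwi and none in the other members. How reads in repeats were treated is not given in the sources used here, and its part in this count was not tested. The nearest IDR summit was 459091 bp away.

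Other genes that overlap the members numbered 11, transposable elements aside. Of the 6 nested in a member, vig and Pym had an IDR summit within 500 bp of a start, while solo, Pbp45 and snoRNA:gcl-a had one in the pooled list and in at least 1 replicate but not in the IDR set, and lncRNA:osk had none. Of the 5 that overlap in part, TTLL4A had an IDR summit, SCAR at the 3′ end of piwi had a pooled region at rank 15519, and asRNA:CR44020, CG11854 beside bam and CG30356 beside gcl had none.

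The same promoter words were counted in the 300 bp promoters of the members, from 250 bp before to 50 bp after the start, on both strands. The DRE was in 2 of 10 (spn-E and bam), against 9.36% of all promoters, and the BEAF-32 core in 7 of 10, against 47.3%. The Motif 1 core was in 2 of 10 (piwi and gcl), against 7.69% of all promoters. The TATA box was in 4 of 10 against 45.8%, the initiator core in 5 of 10 against 51.5%, and the E-box in 0 of 10 against 17.6%. At the summits within 50 bp on either side, the E-box was in 2 of the 7 windows, those at TTLL4A and vig, against 4.62% of all IDR windows. The BEAF-32 core was in 3 of these windows, at TTLL4A, ScsbetaA and Pym, against 20.4%, and the TATA box in 1, at gcl, against 17.4%. The initiator core and the Motif 1 core were in none of the 7, against 18.3% and 1.44%.

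The members were also set beside 3 wider lists of germline genes, counting genes with an IDR summit within 500 bp of a start. Among 39 piRNA factors 6 had one (15.4%), beside 20.3% of all protein-coding genes. Among 29 genes of the germ plasm and of osk mRNA localisation 10 had one (34.5%), and among 24 genes of germline stem cells and differentiation 8 had one (33.3%). Leaving out the members of the present group, the counts were 5 of 33 (15.2%), 9 of 25 (36.0%) and 7 of 21 (33.3%). With a window of 1000 bp the 39 piRNA factors gave 10, which is above the 23.2% of all protein-coding genes. The 29 germ plasm genes then gave 12 and the 24 stem cell genes 10, also above that share. On more than 1 of the 3 lists were 8 genes, of which vas alone was on all 3.

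The 6 piRNA factors were papi, Nbr, the gene of heterochromatin protein HP1a, tapas, piwi and fs(1)Yb. By signal, papi, which encodes a Tudor-domain protein, came first with 501 and its summit 293 bp upstream, and Nbr, the exonuclease Nibbler, had 134. The HP1a gene had 131 and tapas, for a further Tudor-domain protein, 112. The gene piwi had 106 and fs(1)Yb, a factor of the somatic piRNA pathway, 105. The regions of papi and of the HP1a gene were in all 3 top lists, those of Nbr, tapas and piwi in 2 and that of fs(1)Yb in 1. For papi and tapas their own start was the nearest. The start of another gene was nearer to the regions of Nbr, the HP1a gene, piwi and fs(1)Yb. Regions were also held to the top lists of both remaining replicates. The count of 6 then became 2 without replicate 1, 2 without replicate 2 and 5 without replicate 3. The share of all protein-coding genes went from 20.3% to 14.5%, 13.6% and 14.6%.

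The strongest of the germ plasm list were tral, a component of translation-regulating RNA granules, with a signal of 481, nos, the posterior translational repressor, with 251, and stau, a double-stranded RNA-binding protein that localises osk mRNA, with 251. They were followed by orb, a polyadenylation factor that acts on osk mRNA, with 213, tsu, a core subunit of the exon junction complex, with 198, and bcd, the anterior determinant, with 184. All 6 were in the top list of every replicate, and gcl, on the same list with 112, was in 2. In the stem cell list nos was followed by bgcn with 238, the deadenylase gene twin with 212, the splicing regulator Sxl with 200, the translational repressor brat with 175 and stwl, which encodes another protein with MADF and BESS domains, with 150. The region of each of these was in the top list of every replicate. Over the 3 lists 22 genes had such a region, and for 12 of them their own start was the nearest. The matching share over all protein-coding genes with such a region was not computed, so the count of 12 is not read further. The start of another gene was nearer to the regions given here for tral, nos, orb, gcl and brat. The region was in all 3 top lists for 14 of the 22, beside 58.7% of all IDR regions, and the genes named here by highest signal are the stronger ones of their lists.

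With the gene body and 2 kb around it, the lists gave 18 of 39 (46.2%), 18 of 29 (62.1%) and 16 of 24 (66.7%), beside 34.0% of all genes. Their genes were longer, with medians of 3.45, 5.90 and 13.1 kb against 2.16 kb over all protein-coding genes, and the members had a median of 5.43 kb. The part of gene length in these counts was not tested.

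**Figure D4:**
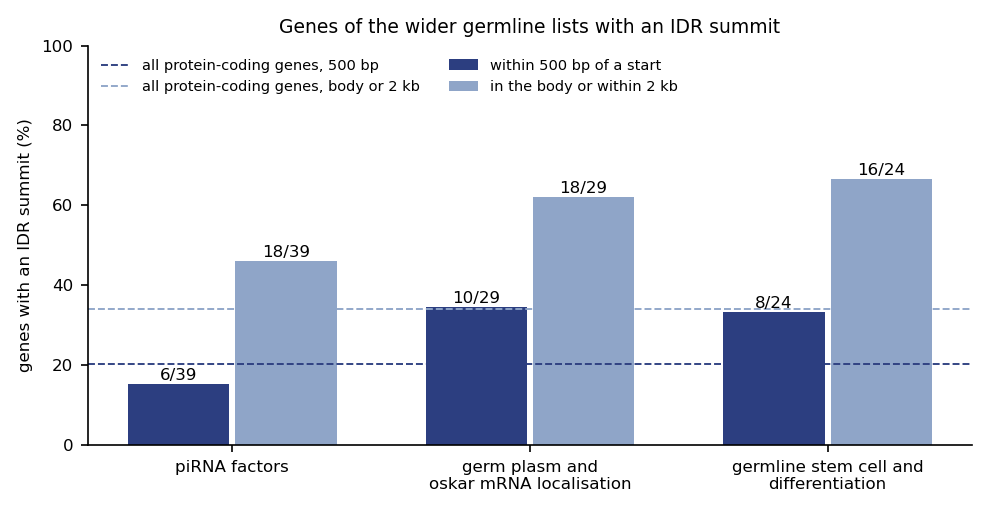
Share of the genes of each wider list with an IDR summit within 500 bp of a start (dark bars) and in the body or within 2 kb (light bars), in percent on the vertical axis, with the counts above the bars and the shares of all protein-coding genes, 20.3% and 34.0%, as dashed lines. At the start, piRNA factors lie below the line with 6 of 39 and the other lists above it, and with the body included all 3 lists lie above it.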

How the data were processed

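ChIP-seq regions of 3 biological replicates, grouped as 1 group by the replicate numbers in the labels, were read from the deposited lists on dm6. Per the file headers and the deposited file list, regions were called for each replicate and for the 3 pooled, each time with 1 shared further file, and the IDR set was derived from these lists. On dm6 it equals the 3741 strongest regions of the pooled list. The authors' signal is an enrichment value of each region whose scale differs between lists. Each deposited region also has a −log10 q value. For the aligner and the caller, and for the threshold on the IDR, nothing is stated in the sources used here. Sequencing depth is unknown, since the lists carry no read counts. The control sample, the signal tracks and the dm3 lists were not used here.

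Summits were compared with Ensembl release 115 genes (BDGP6 patch 54), positions counted from 1, and the build was checked on 30618 annotated start codons, 99.8% of them ATG in the Release 6 sequence. Regions were matched between lists by an overlap of at least 1 bp. The counting of summits at genes and the matching of regions by overlap were tested on simulated data, and the other steps were not. All steps were run with Python 3.11.15, pandas 2.3.3, numpy 2.4.6 and pysam 0.24.0. No test between groups was possible with 1 group, so counts are given beside the share of all genes or regions. The members and lists were chosen with earlier results of these data known. The text names all members, genes nested in them or with a start within 500 bp of the summits of their IDR regions, the best-ranked region of each list at members without an IDR region, and from each wider list at most the 6 genes with the highest signal. Genes that overlap a member in part and genes at the nearest summit outside the window are outside this rule. So are the neighbours ND-23, Lapsyn and tRNA:Gly-GCC-1-13. All of these were chosen after their values were seen. The symbol boot, a piRNA factor, had no match in the annotation, and a consensus for Ohler motif 7 was not used here.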

Additional observations from a re-analysis of the deposited data

How the results depend on the processing

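The count of 5 members with an IDR region in the body or within 2 kb became 2 with the stronger 50% of IDR regions, 2 with regions in every top list and 2 with the gene body alone, where the share of all protein-coding genes went from 34.0% to 20.9%, 22.7% and 10.4%. It was 2 to 3 with each replicate left out (24.2 to 26.4% of all genes), 5 with 1 kb (28.7%) and 7 with 5 kb (46.9%). The count of 3 at the members' own starts became 1 with the stronger 50%, 1 with regions in every top list and 1 with 200 bp, where the share of all genes went from 20.3% to 11.7%, 12.6% and 14.7%. It was 1 to 3 with each replicate left out (13.6 to 14.6% of all genes), and 3 with 1000 bp (23.2%) and with the most upstream start (18.4%). The count of 2 regions in every top list became 0 under reciprocal overlap of 50% (43.5% of all IDR regions), 0 with the top 1000 (18.9%) and 5 with the top 10000 (86.2%), and was 2 with summits within 100 bp (51.8%). For starts, the shares of all genes given above also apply to the wider lists. The 39 piRNA factors gave 4 with 200 bp, 10 with 1000 bp and 2 to 5 with each replicate left out, against 6. They lay above the share of all genes with 1000 bp (23.2%) and below it under the other settings. The 29 germ plasm genes gave 6 with 200 bp, 12 with 1000 bp and 7 to 8 with each replicate left out, against 10. The 24 stem cell genes gave 5, 10 and 6 to 7, against 8. Both of these lists lay above the share under every one of these settings. The lists are not independent, since nos counts in both. Any annotated start was counted, and the most upstream start alone was not tried for the wider lists. The part of gene length and of the number of starts per gene in these counts was not tested. With each replicate left out, IDR regions in the top lists of both remaining replicates were kept, while the IDR set itself still came from all replicates. The stricter sets hold fewer regions than the IDR set. No paired analysis was possible because there is 1 group. Depth is unknown, so a gene without a region may have had one below detection.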

Other observations

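The summit window between piwi and CG12253 had the lowest G+C of all 3741 IDR windows that reach 100 bp to either side, 18.4% against a median of 36.3% and a maximum of 69.7%. Centred on the summits of replicates 1, 2 and 3 in place of the pooled summit, this window had 23.4%, 20.4% and 24.4%. The gcl window, also between divergent starts, had 25.4%, and 56 windows were lower. It had 29.4% and 30.8% at the summits of replicates 1 and 2, and 33.8% at the neighbouring summit of replicate 3. The other 5 member windows had 37.8 to 47.3%. These values were looked up after the regions had been seen. The pooled region at the spn-E start, between spn-E and its divergent neighbour ND-23, had 21.9%.

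Of the 3405 IDR regions listed by every replicate, 3 stood further up in replicate 3 relative to replicates 1 and 2 than the TTLL4A region beside piwi, whose log2 ratio of ranks was -4.07. In replicate 3 that region was 161 bp wide and had a signal of 170, against 36.7 and 31.9 in replicates 1 and 2, whose scales differ.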
